A study of Mus musculus with 12 samples.

Results

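The collagen and laminin genes of the mouse genome were followed in retinas after laser burns. They were chosen by symbol alone, with no measured value: protein-coding genes named Col, a number, a and a number, or Lam, a, b or c and a number. This gave 55 genes, 44 for collagen chains and 11 for laminin chains, of 54367 genes in the tables, and all 55 were present on both days. Wild-type C57BL/6 mice aged 8 to 12 weeks received burns at 4 positions of the right retina from a laser of 532 nm, with a spot of 75 µm and a pulse of 0.1 s. The left eye of each mouse was not lasered and served as its control. Poly(A) RNA of the retina was sequenced 3 and 7 days after the laser, with 3 libraries of lasered and 3 of control eyes at each time and 12 in all. Nothing in the labels says that the 3 libraries of a group came from separate animals, so the p-values measure the spread between these libraries, which may be technical. The control eye shared its animal with a lasered eye.

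Collagens are triple helices of 3 chains. Fibrillar collagens bear tension in scars, sclera and vitreous, type IV collagens form the sheet of basement membranes, and other types attach to fibrils, form beaded filaments, networks or anchoring fibrils, carry sugar chains in basement membrane zones or span the cell surface. Laminins are cross-shaped trimers of an alpha, a beta and a gamma chain and form the other polymer of basement membranes. In the retina these proteins make up the inner limiting membrane, the sleeves of the blood vessels and, under the pigment epithelium, Bruch's membrane, which strong laser burns can break.

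No collagen or laminin gene passed the test of laser against control on either day. Of the 55 genes, 9 had a mean signal of at least 1 over the 6 libraries of day 3 and could be tested, and 0 of those 9 were called. The test was limma on log2(signal + 1), with Benjamini-Hochberg adjustment over all genes tested and a threshold of 0.05. The same test called 0.149% of 16786 genes on day 3. On day 7, 28 of the 55 genes could be tested and 0 were called, against 0.244% of 15592 genes. At an unadjusted p under 0.05, the test passed 1 gene on day 3 (Col4a3) and 2 on day 7 (Col23a1 and Col4a6), where it passed 23.0% and 3.94% of all genes tested. Limma-voom on recovered reads, which reaches lower genes, covered 24 of the 55 genes on day 3 and 48 on day 7, and it too called 0 on each day, against 0.0768% and 0.112% of all genes. Its unadjusted p was under 0.05 for 4 genes on day 3 (Lama5, Col4a1, Col4a6 and Col4a3) and 3 on day 7 (Col4a6, Lamc3 and Col23a1), beside 24.8% and 3.74% of all genes. The median log2 difference of the tested collagen and laminin genes was 0.09 on day 3 and 0.04 on day 7, beside 0.16 and 0.06 for all genes tested. Rescaling by median of ratios moved the all-gene medians to -0.03 and -0.04 and those of the collagen and laminin genes to -0.09 and -0.05, so the direction of these medians depends on the scaling. The 95% interval of a single gene reached 0.62 to each side of its log2 difference on day 3 and 0.57 on day 7, as medians over the tested genes. It ranged from 0.39 to 1.20 on day 3 and from 0.34 to 1.06 on day 7.

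**Figure D1:**
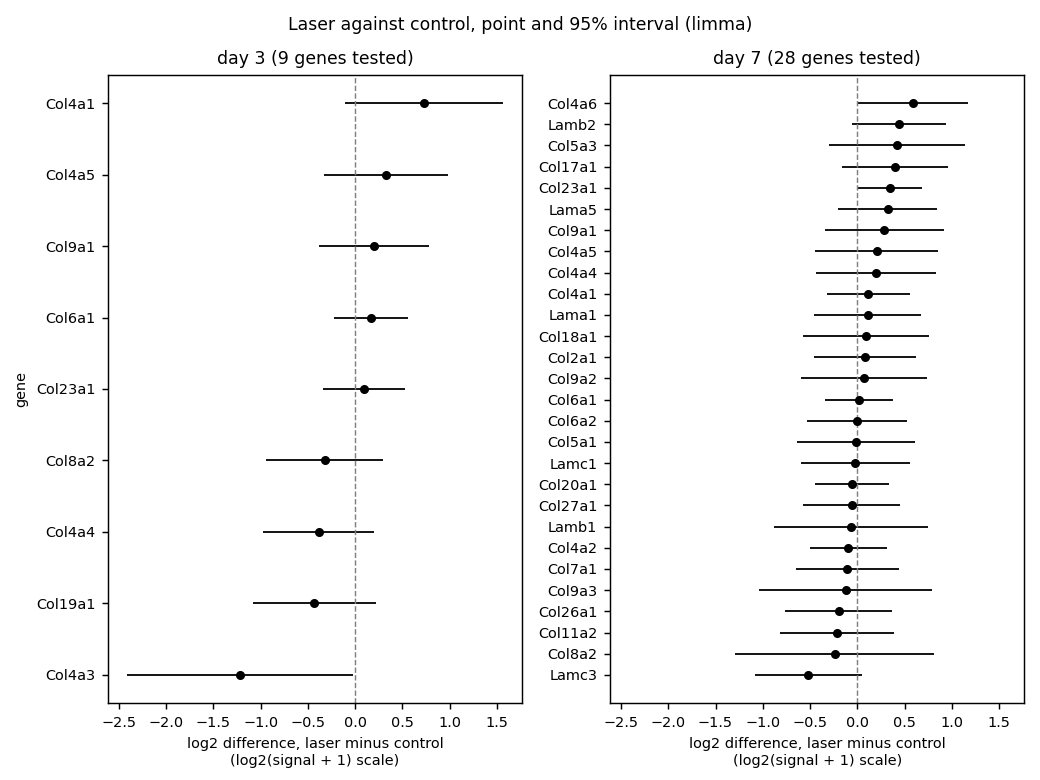
Log2 difference of laser minus control on the log2(signal + 1) scale (x axis) for each tested gene (y axis), as a point with its 95% interval from limma, for 9 genes on day 3 and 28 on day 7. The intervals of Col4a3 on day 3 and of Col23a1 and Col4a6 on day 7 leave out 0 before adjustment, and 0 genes pass after it.

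The libraries held 9282007 to 12515828 reads on day 3 and 23886207 to 31092905 on day 7. Rod markers had the highest summed signal of the cell marker lists in every library. On day 3 their sum was 8108 to 20193 in lasered eyes and 18017 to 22783 in control eyes. On day 7 it was 37508 to 44456 in lasered eyes and 47420 to 50441 in control eyes. The signal of all genes summed to 953049 to 1045986 per library. In bulk tissue, fewer cells of a type and less RNA per cell cannot be told apart. Lasered libraries of day 3 stood apart from each other: summed microglia and macrophage markers were 817, 86.6 and 130 there, against 24.7, 22.9 and 24.0 in control eyes, and pigment epithelium markers were 64.5, 242 and 774 there, against 400, 626 and 532 in control eyes. Lens markers were high in laser replicate 2 of day 3 (265) and in laser replicate 1 of day 7 (881), and were between 0.852 and 6.66 in the other 10 libraries. Cornea and conjunctiva markers summed to at most 2.97 in any library, with 2 of 6 at 0 throughout each day. The part of these cell types in the results below was not tested.

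Promoters of the type IV pairs Col4a1 with Col4a2 and Col4a5 with Col4a6 are shown because each pair is transcribed in opposite directions from neighbouring starts. Each is 300 bases from RefSeq on GRCm38.p6 (mm10), from 250 bases before the start to 50 after it, printed 5′ to 3′ on the strand of its gene. Capitals mark the GC box (GGGCGG) and the CCAAT motif, searched on both strands. They lie at chr8:11312777-11313076 on the minus strand for Col4a1, chr8:11312555-11312854 on the plus strand for Col4a2, chrX:141475169-141475468 on the plus strand for Col4a5 and chrX:141474027-141474326 on the minus strand for Col4a6.
Col4a1: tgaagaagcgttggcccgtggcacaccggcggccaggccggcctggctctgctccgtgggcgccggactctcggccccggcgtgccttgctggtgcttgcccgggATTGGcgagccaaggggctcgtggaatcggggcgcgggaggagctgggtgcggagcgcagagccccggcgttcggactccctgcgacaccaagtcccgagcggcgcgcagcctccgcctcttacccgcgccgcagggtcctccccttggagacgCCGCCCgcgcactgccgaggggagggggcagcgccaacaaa
Col4a2: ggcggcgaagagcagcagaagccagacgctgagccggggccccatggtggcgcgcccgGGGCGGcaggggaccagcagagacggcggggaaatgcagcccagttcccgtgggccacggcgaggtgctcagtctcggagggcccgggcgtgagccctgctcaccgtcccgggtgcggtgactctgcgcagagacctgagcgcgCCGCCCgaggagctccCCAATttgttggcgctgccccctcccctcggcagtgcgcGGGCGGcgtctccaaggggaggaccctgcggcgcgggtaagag
Col4a5: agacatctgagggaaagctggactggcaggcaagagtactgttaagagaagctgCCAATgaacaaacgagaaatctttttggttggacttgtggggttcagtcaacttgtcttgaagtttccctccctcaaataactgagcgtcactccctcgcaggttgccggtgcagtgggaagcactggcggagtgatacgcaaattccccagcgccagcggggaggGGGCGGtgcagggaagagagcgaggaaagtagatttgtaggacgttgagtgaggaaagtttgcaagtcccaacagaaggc
Col4a6: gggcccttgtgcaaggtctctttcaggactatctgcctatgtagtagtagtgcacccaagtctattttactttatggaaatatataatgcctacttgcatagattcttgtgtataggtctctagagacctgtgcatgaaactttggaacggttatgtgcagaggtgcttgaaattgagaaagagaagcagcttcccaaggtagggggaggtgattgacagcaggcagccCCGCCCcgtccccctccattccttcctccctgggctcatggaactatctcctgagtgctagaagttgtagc

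The RefSeq starts of Col4a1 and Col4a2 were 21 bases apart, so their windows share 78 bases and motifs in that stretch are counted for both. Those of Col4a5 and Col4a6 were 1343 bases apart. GC boxes numbered 1 for Col4a1, 3 for Col4a2, 1 for Col4a5 and 1 for Col4a6, and 35.7% of 32851 mouse promoters of this length hold at least 1. CCAAT was found once each for Col4a1, Col4a2 and Col4a5 and not for Col4a6, beside 37.4% of all promoters. The TATA motif TATAAA was in none of the 4, beside 13.6% of all promoters. GC content was 74.0% for Col4a1, 73.7% for Col4a2, 52.7% for Col4a5 and 48.3% for Col4a6, against a median of 52.7% over all promoters. Of the 55 genes, 40 matched an entry of the promoter table. Col4a3 did not, so the pair of Col4a3 with Col4a4 is not shown.

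**Figure D2:**
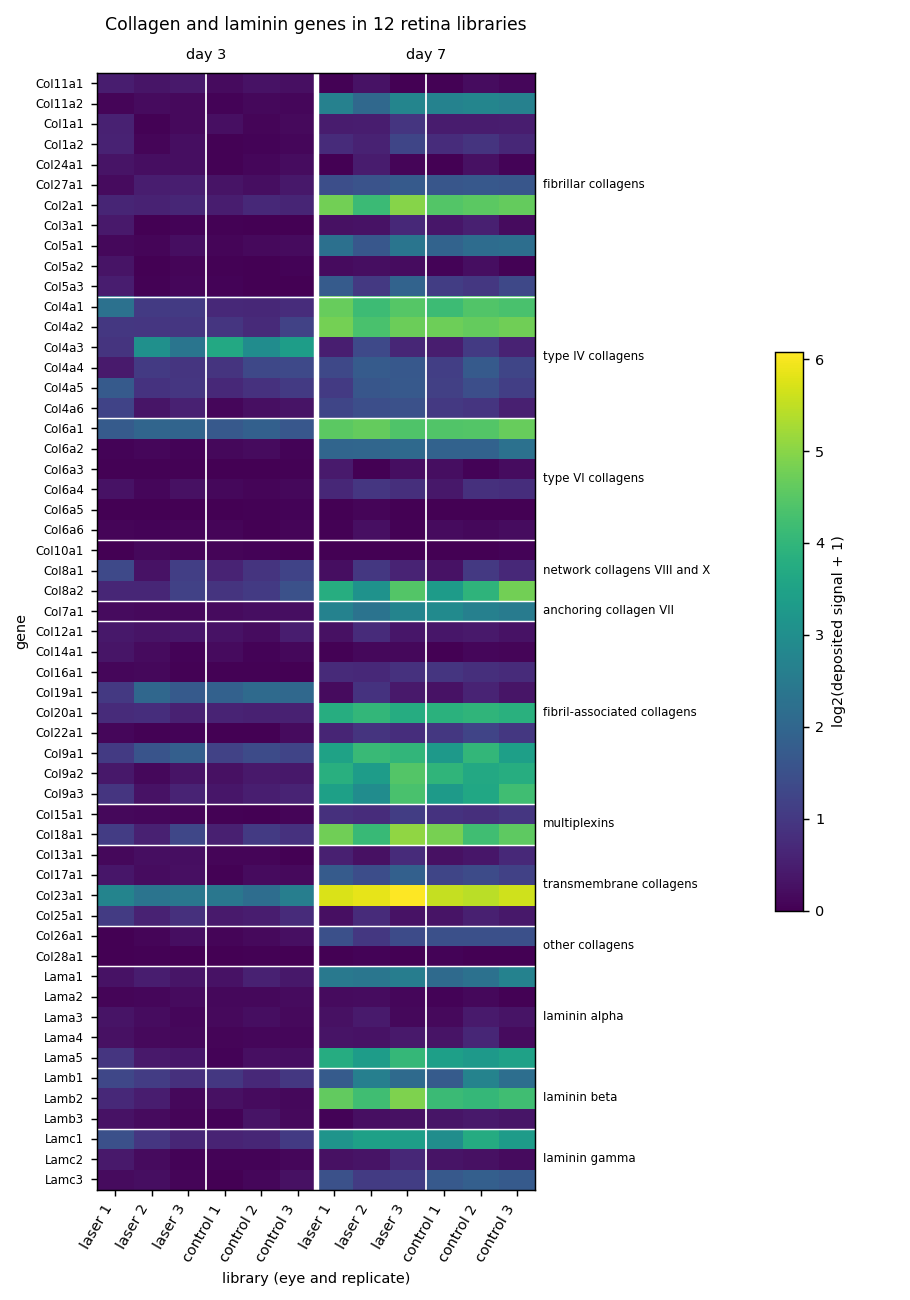
Log2(signal + 1) of all 55 genes (rows, grouped by role) in the 12 libraries (columns, laser left of control, day 3 left of day 7). Few rows are bright on day 3, and Col23a1 is the brightest row on day 7, where laser replicate 3 reaches 66.4.

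Type IV collagen was the best measured group on day 3, with 4 of its 6 chains tested. Col4a1 (ENSMUSG00000031502, chr8:11198423-11312826, minus strand) encodes a chain of the ubiquitous basement membrane trimer. Its signal was 3.82, 1.04 and 1.04 in lasered eyes, from 142, 55 and 42 reads, against 0.619, 0.603 and 0.693 in control eyes, from 30, 29 and 26 reads. All 3 lasered eyes lay above all 3 control eyes, and laser replicate 1 lay far above the other lasered eyes. The means were 1.97 ± 1.60 in lasered eyes and 0.639 ± 0.0477 in control eyes (SD, n = 3 each), and the log2 difference of 0.73 (SE 0.36) did not pass limma, with an adjusted p of 0.267. Groups without overlap were found in 27.7% of all genes in this direction on day 3. Without laser replicate 1, which also held the most microglia and macrophage markers, the gene fell below the mean signal needed for a test.

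Its partner in the trimer, Col4a2 (ENSMUSG00000031503, chr8:11312805-11449287, plus strand), did not show this order. It was at 0.989, 0.961 and 0.932 in lasered eyes, against 0.910, 0.656 and 1.28 in control eyes, just under the level needed for a test. The lasered values lie within the range of the control values. The ratio of Col4a1 to Col4a2 was 3.86, 1.09 and 1.11 in lasered eyes and 0.680, 0.920 and 0.540 in control eyes on day 3, without overlap. On day 7 the ratio was 0.895, 0.893 and 0.844 in lasered eyes and 0.666, 0.860 and 0.742 in control eyes, where the groups overlapped. In each same-numbered pair of eyes on day 7 the ratio was higher in the lasered eye. The smallest p that an exact 2-sided permutation test of 3 libraries against 3 can give is 0.1, and the ratio is given here with no test. The share of other gene pairs whose ratios do not overlap was not worked out. The first exons of these genes overlap, and whether reads were counted by strand is not stated in the sources used here.

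Col4a3 (ENSMUSG00000079465, chr1:82586921-82722059, plus strand) encodes a chain of the trimer with Col4a4 and Col4a5, known from the kidney filter and, in humans, from Alport syndrome. It had the highest mean signal of the 55 genes over the 6 libraries of day 3. Its signal was 0.886, 7.27 and 4.16 in lasered eyes, from 44, 511 and 225 reads, against 11.6, 6.72 and 9.44 in control eyes, from 751, 431 and 473 reads. Laser replicate 1 was the lowest of all 6, and laser replicate 2 lay above the lowest control eye. Col4a3 averaged 4.10 ± 3.19 in lasered eyes and 9.25 ± 2.45 in control eyes (SD, n = 3 each). The log2 difference of -1.22 (95% interval -2.42 to -0.02) had an unadjusted p of 0.0469 and an adjusted p of 0.211 by limma. Without laser replicate 1 it was -0.62, with an adjusted p of 0.307. That library also had the lowest summed pigment epithelium and rod markers of day 3. An antisense transcript, C430014B12Rik, shares exon bases with Col4a3, so the reads of the pair may be mixed.

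Its neighbour Col4a4 was at 0.360, 1.03 and 0.924 in lasered eyes, against 0.879, 1.498 and 1.53 in control eyes on day 3. The groups overlapped and the log2 difference was -0.39 (SE 0.25; limma, adjusted p = 0.389). Col4a5, the third chain of that trimer, was at 2.30, 0.844 and 0.932 in lasered eyes, against 0.619, 0.809 and 1.04 in control eyes, with a log2 difference of 0.33. Again laser replicate 1 stood above the others. Col4a6, a chain of the smooth muscle type of basement membrane, was too low for the main test on day 3, with 52, 14 and 21 reads in lasered eyes against 4, 10 and 10 in control eyes. By voom its log2 difference was 1.74 (95% interval 0.12 to 3.35), with an adjusted p of 0.174.

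**Figure D3:**
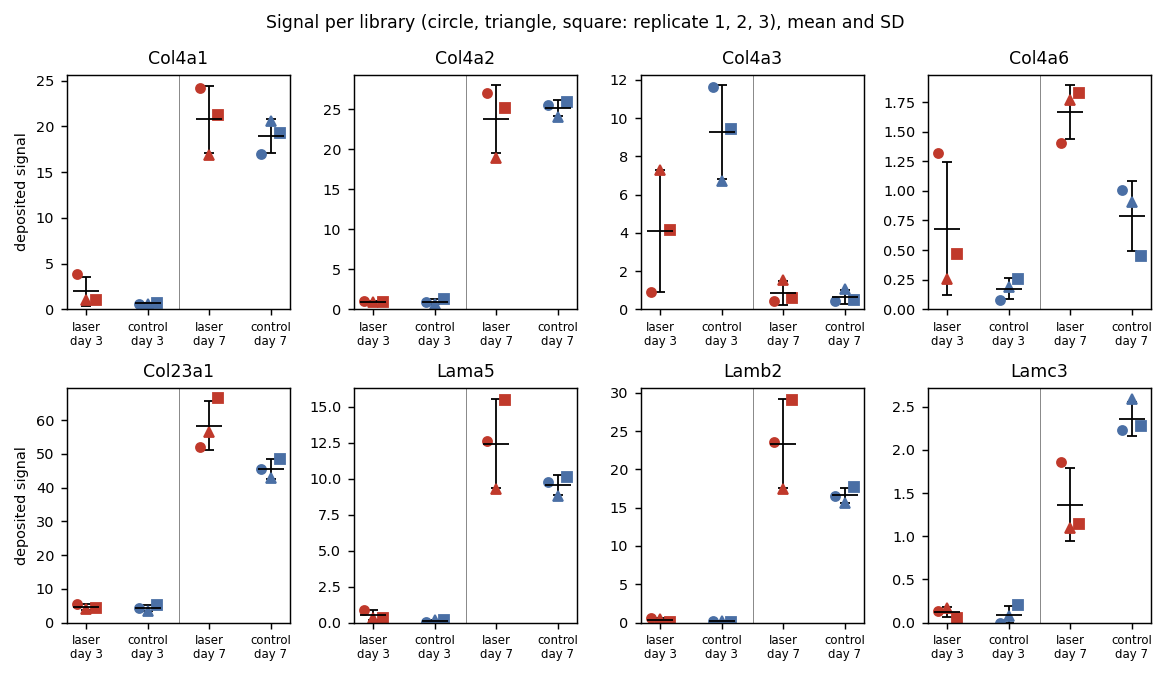
Deposited signal (y axis) of 8 genes per library, with laser left of control within each day; marks are the 3 libraries, bars the mean and SD of 3. Col4a3 has its higher group means on day 3 and the other 7 genes have theirs on day 7, and the day 7 groups of Col4a6, Col23a1 and Lamc3 do not overlap. The days come from separately normalized tables.

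Among the other collagens tested on day 3, the groups overlapped in every case. Col23a1, a collagen of the cell surface that can be shed, was at 5.64, 4.05 and 4.27 in lasered eyes, against 4.34, 3.50 and 5.06 in control eyes, with a log2 difference of 0.09. Col6a1, a chain of beaded filaments around cells, was at 2.34, 2.98 and 2.90 in lasered eyes, against 2.22, 2.62 and 2.13 in control eyes, with a log2 difference of 0.17. Col19a1, a fibril-associated collagen made by neurons in mouse brain, was at 1.01, 3.11 and 2.27 in lasered eyes, against 2.704, 3.281 and 3.17 in control eyes. Its log2 difference was -0.43, and -0.14 without laser replicate 1. Col9a1, a fibril-associated chain of cartilage and vitreous, differed by 0.20 on the log2 scale. Col8a2, a network collagen of the corneal Descemet membrane, differed by -0.32. The adjusted p-values of these 5 genes by limma were between 0.383 and 0.803.

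The fibrillar collagens of scar tissue were scarce on day 3, and 0 of the 11 fibrillar genes reached a mean signal of 1. Col1a1, the main chain of type I collagen, had 15, 1 and 4 reads in lasered eyes, against 8, 3 and 4 in control eyes. Col1a2, its partner chain, had 31, 5 and 11 reads in lasered eyes, against 2, 3 and 5 in control eyes. Col3a1, which forms thin fibrils in early wounds, had 16, 0 and 2 reads in lasered eyes, against 2, 0 and 0 in control eyes. Laser replicate 1 held the most reads of each of these 3 genes, and the signals of the groups overlapped in each. The same library had the highest summed pericyte and smooth muscle markers (53.1, with 11.8 and 13.6 in the other lasered eyes and 9.61 to 12.9 in control eyes), and its part in these counts was not tested. Type VI collagen other than Col6a1, Col7a1 of anchoring fibrils, and the multiplexins Col15a1 and Col18a1, which release fragments such as endostatin, were also too low for the main test on day 3. Of these, voom covered Col18a1, with a log2 difference of 0.35 and an adjusted p of 0.695. It was at 1.12, 0.465 and 1.47 in lasered eyes, against 0.439, 1.04 and 0.822 in control eyes.

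Laminins were low as well, and 0 of the 11 chains reached the main test on day 3. Lama5, the alpha chain of mature vessel and epithelial basement membranes, had 51, 26 and 17 reads in lasered eyes, against 3, 14 and 10 in control eyes. All lasered eyes lay above all control eyes, as in 28.8% of the 16923 genes covered by voom. The gene was singled out after its values were seen: by voom its log2 difference was 1.92 (95% interval 0.41 to 3.43), and its adjusted p of 0.126 was the lowest of the 24 collagen and laminin genes covered by voom. Lamb1, the most widespread beta chain, was at 1.46, 1.11 and 0.779 in lasered eyes, against 0.983, 0.630 and 0.971 in control eyes. Lamc1, the gamma chain of most laminins, was at 1.78, 0.954 and 0.578 in lasered eyes, against 0.510, 0.575 and 1.04 in control eyes. The groups overlapped in both genes, and laser replicate 1 was the highest library in both. Summed laminin signal was 6.21, 3.997 and 2.47 in lasered eyes and 2.31, 2.68 and 3.32 in control eyes, and overlapped.

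**Figure D4:**
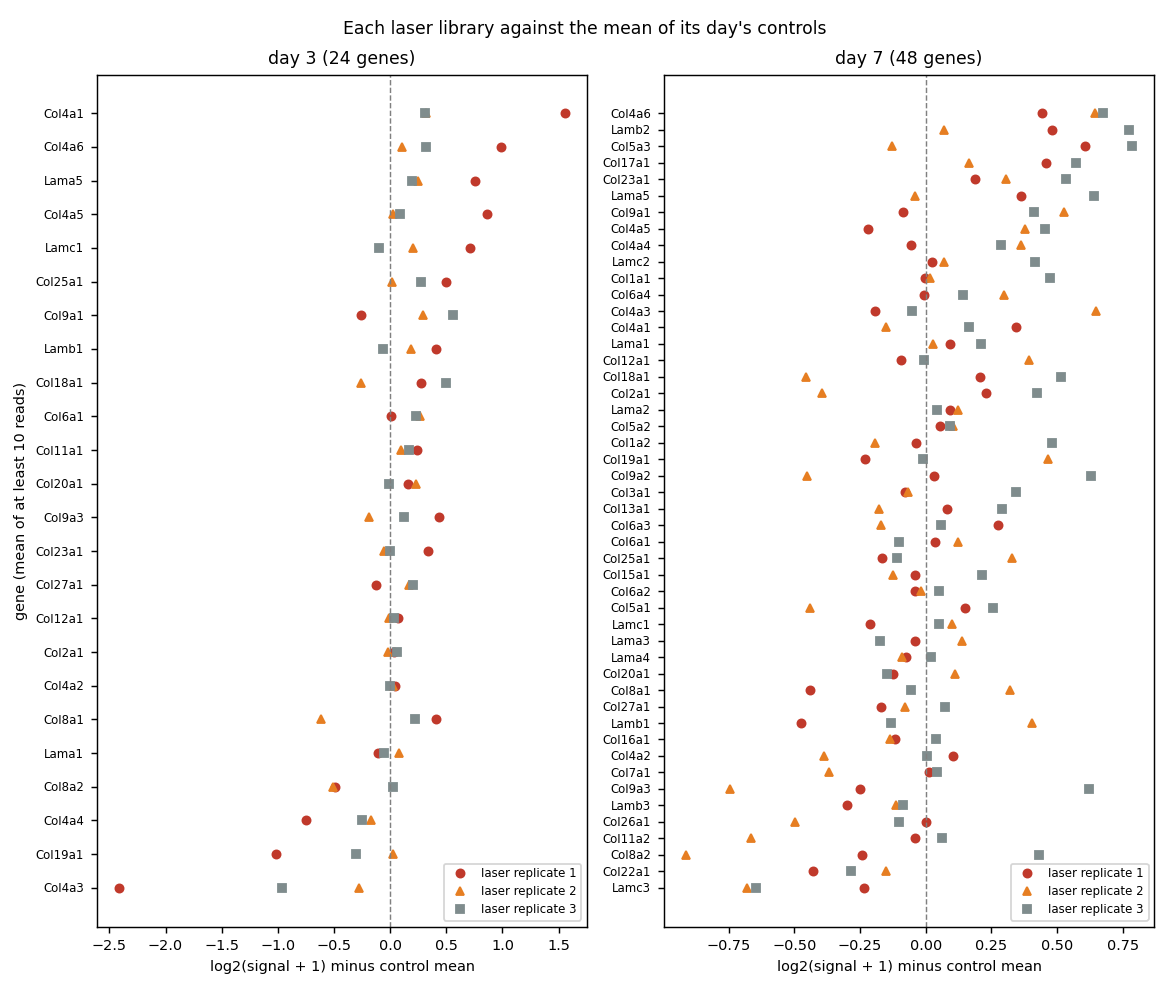
Each laser library minus the mean of the control libraries of its day, on log2(signal + 1) (x axis), for the genes with a mean of at least 10 reads (y axis), 24 on day 3 and 48 on day 7. Laser replicate 1 is highest of 3 in 13 genes on day 3 and laser replicate 3 in 27 genes on day 7.

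The lasered eyes differed among themselves on both days. On day 3, laser replicate 1 was the highest of the 3 lasered eyes in 13 of 24 genes with at least 10 mean reads (54.2%), beside 48.7% of all 16923 genes. On day 7, laser replicate 3 was the highest in 27 of 48 genes (56.2%), beside 20.9% of all 16917 genes. The summed signal of all 55 genes was 37.2, 33.4 and 32.6 in lasered eyes and 33.1, 31.2 and 38.4 in control eyes on day 3, and 326, 287 and 393 in lasered eyes and 288, 304 and 329 in control eyes on day 7. The groups overlapped on each day. Laser replicate 3 of day 7 also had the highest fibroblast marker sum, at 105. The sum was 69.9 and 75.6 in the other lasered eyes and 60.2 to 68.9 in control eyes. Most of the 105 came from Prelp (87.1) and Fmod (15.1), while Lum was at 0 and Dcn at 0.0336 in that library. The part of fibroblasts in these signals was not tested.

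On day 7 the cell-surface collagen Col23a1 (ENSMUSG00000063564, chr11:51289920-51583918, plus strand) had the highest signal of all 55 genes. It was at 52.0, 56.6 and 66.4 in lasered eyes, against 45.5, 42.7 and 48.5 in control eyes, and the groups did not overlap. It averaged 58.3 ± 7.35 in lasered eyes and 45.6 ± 2.91 in control eyes (SD, n = 3 each). The log2 difference of 0.34 (95% interval 0.01 to 0.68) had an unadjusted p of 0.0465 and an adjusted p of 0.9998 by limma. Without overlap and higher in lasered eyes were 3 of the 28 tested collagen and laminin genes, and 6.78% of all genes tested, and lower without overlap was 1 of the 28, and 2.11% of all genes. The other 2 higher genes were Col17a1 and Col4a6, and the lower gene was Lamc3.

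Col17a1, a transmembrane collagen of hemidesmosomes, was at 2.33, 1.72 and 2.61 in lasered eyes, against 1.41, 1.62 and 1.26 in control eyes, with a log2 difference of 0.40. Col4a6 (ENSMUSG00000031273, chrX:141165403-141474076, minus strand) was at 1.40, 1.76 and 1.83 in lasered eyes, against 1.01, 0.903 and 0.454 in control eyes. Its log2 difference was 0.59 (SE 0.25), the largest of the 28, with an adjusted p of 0.9998 by limma and 0.855 by voom. The ratio of Col4a6 to Col4a5 was 1.35, 0.843 and 0.809 in lasered eyes and 0.831, 0.510 and 0.379 in control eyes, so the groups overlapped, while in each same-numbered pair the lasered eye had the higher ratio. On day 3 the ratio was 0.574, 0.307 and 0.499 in lasered eyes and 0.123, 0.234 and 0.250 in control eyes, without overlap. Control eyes then held only 4, 10 and 10 reads of Col4a6. This ratio was tested on neither day, and the share of other gene pairs without overlap was not worked out.

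The main type IV chains were close between the groups on day 7. Col4a1 was at 24.2, 16.9 and 21.3 in lasered eyes, against 17.0, 20.6 and 19.2 in control eyes, with a log2 difference of 0.12 (95% interval -0.32 to 0.55). Col4a2 was at 27.1, 19.0 and 25.2 in lasered eyes, against 25.5, 24.0 and 25.9 in control eyes, with a log2 difference of -0.09 (95% interval -0.50 to 0.32). The groups overlapped in each gene, and laser replicate 2 was the lowest of the 6 libraries in both. The log2 differences of Col4a4 and Col4a5 were each 0.20. Col4a3, at 0.424, 1.55 and 0.568 in lasered eyes against 0.408, 1.05 and 0.487 in control eyes, was too low for the main test.

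Laminin chains could be tested on day 7 for 6 of 11 genes, of which 3 had positive and 3 negative differences. Lamb2 (ENSMUSG00000052911, chr9:108479736-108490530, plus strand), the beta chain of the inner limiting membrane and of photoreceptor synapses, was the highest laminin chain. It was at 23.5, 17.4 and 29.1 in lasered eyes, against 16.5, 15.6 and 17.7 in control eyes. Laser replicate 2 lay among the control eyes, and the other 2 lasered eyes lay above them. The means were 23.4 ± 5.84 in lasered eyes and 16.6 ± 1.03 in control eyes (SD, n = 3 each), with a log2 difference of 0.44 (95% interval -0.05 to 0.93; limma, adjusted p = 0.9998). Lama5 was at 12.6, 9.28 and 15.5 in lasered eyes, against 9.76, 8.84 and 10.1 in control eyes, with the same order of the lasered eyes and a log2 difference of 0.32. Without laser replicate 3 the log2 differences were 0.27 for Lamb2 and 0.16 for Lama5.

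Lamc3 (ENSMUSG00000026840, chr2:31887291-31946539, plus strand), a gamma chain found in mouse retina and brain basement membranes, ran the other way. It was at 1.86, 1.10 and 1.15 in lasered eyes, from 106, 56 and 72 reads, against 2.23, 2.59 and 2.27 in control eyes, from 120, 162 and 111 reads. Every lasered eye lay below every control eye. Part of its exons is shared with the transcript Gm13441, so its reads may be mixed with those of that gene. The log2 difference was -0.52 (95% interval -1.09 to 0.05; limma, adjusted p = 0.9998). Lamc1 differed by -0.02, Lamb1 by -0.07 and Lama1, the embryonic alpha chain that persists in the inner limiting membrane, by 0.11 on the log2 scale.

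Fibrillar collagens of scar tissue stayed low on day 7. Col1a1 was at 0.386, 0.405 and 0.930 in lasered eyes, against 0.387, 0.373 and 0.408 in control eyes. Col3a1 was at 0.215, 0.223 and 0.625 in lasered eyes, against 0.283, 0.452 and 0.130 in control eyes, and Col1a2 at 0.671, 0.501 and 1.40 in lasered eyes, against 0.706, 0.868 and 0.586 in control eyes. In each, laser replicate 3 was the highest library and the other 2 lay among or near the control eyes. Col2a1, the fibril former of vitreous and cartilage, was at 26.4, 16.8 and 30.3 in lasered eyes, against 21.0, 22.2 and 23.8 in control eyes, with a log2 difference of 0.09 and overlap. Col5a3, a chain of the type V collagens that trim fibril width, was at 2.35, 1.02 and 2.80 in lasered eyes, against 1.15, 0.981 and 1.505 in control eyes, with a log2 difference of 0.42, and 0.24 without laser replicate 3. Col11a2 differed by -0.21, Col27a1 by -0.06 and Col5a1 by -0.01 on the log2 scale.

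Of the remaining types, Col18a1, the source of endostatin, was at 25.9, 15.96 and 32.3 in lasered eyes, against 27.3, 17.6 and 22.9 in control eyes on day 7, with a log2 difference of 0.09. Col6a1 was at 22.4, 23.9 and 20.3 in lasered eyes, against 20.5, 20.9 and 24.2 in control eyes, with a log2 difference of 0.02 (95% interval -0.34 to 0.38). Col6a2, the second chain of the type VI trimer, was at 2.96, 3.03 and 3.23 in lasered eyes, against 2.74, 2.79 and 3.80 in control eyes, and its 95% interval ran from -0.53 to 0.52. Col8a2 had the widest interval, at 12.7, 7.62 and 20.9 in lasered eyes, against 9.06, 14.4 and 26.6 in control eyes, with a log2 difference of -0.24. Pigment epithelium markers summed to 412, 667 and 811 in lasered eyes and 318, 468 and 787 in control eyes, and the order of the control eyes was the same for both while that of the lasered eyes was not. Col7a1, Col9a3 and Col26a1, the other collagens among the 6 lowest differences, lay at -0.10, -0.12 and -0.20 on the log2 scale. The fibril-associated chains Col9a1, Col9a2 and Col20a1 differed by 0.29, 0.07 and -0.05. The genes not tested on day 7 numbered 27, and 20 of them were covered by voom. The other 7 were Col6a5, Col6a6, Col10a1, Col11a1, Col14a1, Col24a1 and Col28a1, of which Col10a1 and Col28a1 had at most 2 reads in any of the 12 libraries.

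The laser effect was not found to differ between the days. Of the 55 genes, 25 could be tested for the difference of the log2 differences, day 7 minus day 3, and 0 were called by limma, as was 0 of all 17611 genes. At an unadjusted p under 0.05 it passed 0 of the 25, beside 9.39% of all genes. Col4a3 came nearest, with a difference of 1.35, an unadjusted p of 0.0558 and an adjusted p of 0.537. Only 9 of the 55 genes had a mean signal of at least 1 on day 3. Most of the 25 therefore passed the filter over 12 libraries through their day 7 level. On the log2(signal + 1) scale their day 3 differences come out too small, so the test says little about them. Lama5, with a day 3 mean of 0.320, differed by -0.08 here, while its voom log2 differences were 1.92 on day 3 and 0.37 on day 7.

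Genes that act on collagen and laminin were read beside them from lists chosen with earlier results of these data known. None of the 5 lists, 65 genes in all, held a called gene on either day by limma or by voom. At an unadjusted p under 0.05, limma passed 12 of 37 tested genes on day 3 and 5 of 49 on day 7, beside 23.0% and 3.94% of all genes. Voom passed 20 of 49 on day 3 and 5 of 56 on day 7, beside 24.8% and 3.74% of all genes. Each of these list genes was higher in lasered eyes. Of the genes for collagen synthesis, 16 of 19 were tested on day 3, 5 had an unadjusted p under 0.05 beside 20.7% of all genes that were higher at that threshold. P4hb, a subunit of the enzyme that hydroxylates collagen prolines, was at 149, 100 and 90.5 in lasered eyes, against 39.4, 67.9 and 54.99 in control eyes, with a log2 difference of 1.05 (limma, adjusted p = 0.0977). Fkbp10, a collagen chaperone, was at 9.73, 4.47 and 3.54 in lasered eyes, against 1.29, 2.38 and 1.82 in control eyes, with a log2 difference of 1.20 (limma, adjusted p = 0.114). The groups did not overlap in either gene, as in 27.7% of all genes tested in this direction on day 3. On day 7, 1 of 18 tested genes of the list had an unadjusted p under 0.05, beside 3.14% of all genes that were higher at that threshold. It was P3h3, of the family of prolyl 3-hydroxylases, with a log2 difference of 0.37. P4hb was at 355, 279 and 353 in lasered eyes, against 314, 273 and 308 in control eyes on day 7, and overlapped, with a log2 difference of 0.14. Fkbp10 differed by 0.35.

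Sparc, a glycoprotein that binds collagen IV and fibrillar collagens, had the lowest adjusted p among the 5 lists on day 3. It was at 292, 344 and 386 in lasered eyes, against 127, 193 and 175 in control eyes, with a log2 difference of 1.05 (limma, adjusted p = 0.0883). On day 7 it was at 318, 403 and 359 in lasered eyes, against 246, 230 and 232 in control eyes, with a log2 difference of 0.60 (limma, adjusted p = 0.346). Lasered eyes lay above control eyes on both days, as in 27.7% of all genes tested on day 3 and 6.78% on day 7. Agrn, a heparan sulfate proteoglycan of basement membranes, differed by 0.64 on day 3 and 0.31 on day 7 on the log2 scale. Of this list of basement membrane partners, 5 of 10 genes were tested on day 3 and 9 of 10 on day 7, and Sparc was the only gene of the list with an unadjusted p under 0.05 on each day.

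The largest differences of the 5 lists on day 3 were in genes for procollagen trimming. Pcolce, which enhances the removal of the procollagen C-propeptide, was at 41.5, 16.1 and 26.3 in lasered eyes, against 3.72, 9.68 and 5.35 in control eyes on day 3, with a log2 difference of 1.99 (limma, adjusted p = 0.0915). Bmp1, the protease that removes it, was at 9.68, 1.79 and 1.82 in lasered eyes, against 0.427, 0.514 and 0.713 in control eyes, with a log2 difference of 1.502 (limma, adjusted p = 0.149). On day 7 Bmp1 was at 13.7, 14.7 and 14.4 in lasered eyes, against 7.40, 7.13 and 6.45 in control eyes, with a log2 difference of 0.94 (limma, adjusted p = 0.183), and Pcolce differed by 1.00. Neither gene overlapped between the groups on either day. Higher without overlap were 27.7% of all genes tested on day 3 and 6.78% on day 7. At an unadjusted p under 0.05 and higher were 3 of 6 tested genes of the list on day 3 and 3 of 9 on day 7, beside 20.7% and 3.14% of all genes.

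Of the receptors, 4 of 13 were tested on day 3, and 2 had an unadjusted p under 0.05 and were higher in lasered eyes, beside 20.7% of all genes. Ddr1, a receptor kinase for collagen, was at 8.37, 4.34 and 4.43 in lasered eyes, against 1.42, 2.83 and 2.42 in control eyes, with a log2 difference of 1.03 (limma, adjusted p = 0.112). Itgb1, the beta chain of most collagen and laminin integrins, was at 19.4, 9.20 and 6.59 in lasered eyes, against 5.43, 4.85 and 5.81 in control eyes, with a log2 difference of 0.87. On day 7, limma tested 7 receptors and voom 10. By either test 0 had an unadjusted p under 0.05, beside 3.94% of all genes by limma and 3.74% by voom. Bcam, a receptor for laminin alpha 5, had the smallest p of the 7 by limma, with a log2 difference of -0.38 and overlapping groups. On day 3 Bcam was too low for limma. It was then at 1.38, 1.03 and 1.20 in lasered eyes, against 0.334, 0.325 and 0.178 in control eyes. Voom passed 6 of 9 receptors on day 3 at an unadjusted p under 0.05, beside 24.8% of all genes. All 6 were higher in lasered eyes. Prelp, a leucine-rich protein that anchors fibrils to basement membranes, differed by 0.35 on day 3 and 0.40 on day 7 on the log2 scale, and was the only one of 6 tested fibril partners with an unadjusted p under 0.05 on day 3, while 0 of 6 had one on day 7, beside 23.0% and 3.94% of all genes. Next in this list were Bgn, a small proteoglycan, with a log2 difference of 0.69 on day 3, and Tnxb, a tenascin of fibril surfaces, with 0.39 on day 7. Bgn was at 3.82, 0.640 and 0.694 in lasered eyes, against 0.526, 0.731 and 0.217 in control eyes on day 3. Only laser replicate 1 lay above the control eyes.

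The level of most collagen and laminin genes differed far more between the tables of the days than between the eyes. The tables were normalized separately and each holds 1 day, so day and table cannot be told apart, and no test was made. Control means were higher on day 7 for 46 of the 55 genes, and for 9047 of 13423 protein-coding genes with a control mean of at least 1 on either day. Lamb2 averaged 16.6 ± 1.03 in day 7 control eyes and 0.146 ± 0.0512 in day 3 control eyes, and Col2a1 averaged 22.4 ± 1.43 in day 7 control eyes and 0.520 ± 0.120 in day 3 control eyes (SD, n = 3 each). Col18a1 was at 22.6 ± 4.87 in day 7 control eyes and 0.767 ± 0.304 in day 3 control eyes (SD, n = 3 each). Col4a3 ran the other way, at 0.649 ± 0.351 in day 7 control eyes and 9.25 ± 2.45 in day 3 control eyes (SD, n = 3 each).

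The gap was larger for transcripts of higher GC content. Over the 55 genes, the log2 ratio of control means, day 7 over day 3, had a Pearson correlation of 0.71 and a Spearman correlation of 0.80 with the GC content of the longest transcript, as a description across genes that share libraries and tables. Over 13423 protein-coding genes both were 0.72. The 27 genes with a GC content of 55% or more were all higher on day 7, with a median log2 ratio of 2.495, while the 28 genes under 55% had a median of 0.12 and 19 were higher on day 7. Of the 3346 protein-coding genes at 55% or more, 3214 were higher on day 7, with a median of 2.76, and of the 10077 under 55%, 5833 were higher, with a median of 0.36. Read-weighted GC content was 51.7% to 53.3% in the libraries of day 7 and 48.8% to 49.5% in those of day 3. Laser replicate 2 was the lowest of day 7, and the other libraries of that day were at 52.5% to 53.3%. The part of read-weighted GC content in the gap, or in the differences among lasered eyes, was not tested.

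**Figure D5:**
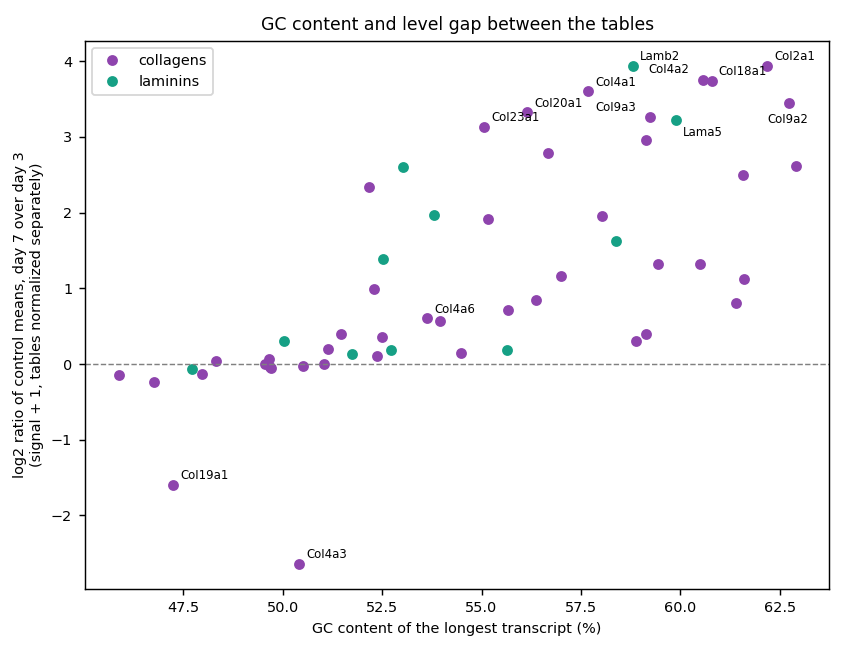
Log2 ratio of control means, day 7 over day 3, on signal + 1 (y axis) against the GC content of the longest transcript in percent (x axis) for the 55 genes, collagens and laminins in separate colours. The GC-rich genes lie highest and Col4a3 and Col19a1 lie below 0, with Pearson 0.71 over all 55.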

How the data were processed

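Poly(A) RNA of 12 retina libraries was measured, and groups were taken from the sample titles. The deposited signal is given per gene and scaled by exon length, in 1 table per day, which the authors name TPM. Column sums ran from 953049 to 1045986, so they are not TPM in the strict sense, although the test fixed for TPM was kept. Per the submitters' processing notes, STAR 2.7.0, edgeR 3.28.0 and mm10 were used, without a stated role. The counting tool, and whether it used strand, is not stated in the sources used here. Libraries were made with a directional kit, per the labels' protocols.

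Values times the union exon length of GENCODE M21, which matches the coordinates of 53681 of 54367 genes, gave whole reads once a factor of 6 cycling values (0.955 to 1.04 on day 3, 0.962 to 1.05 on day 7) was taken out. Of values from 1 to 20 reads, 98.9% to 99.1% per library came out whole within 0.05. A count of 3 reads in a gene of 1 kb is worth 0.446 to 0.605 on day 3 and 0.292 to 0.380 on day 7, for counting error only. In total, 0 columns lacked a sample.

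Each day was fitted over its whole table with limma 3.58.1 in R 4.3.3, with a trended prior, 2-sided, on log2(signal + 1), leaving out genes whose mean over the 6 libraries was under 1, adjusted by Benjamini-Hochberg with a threshold of 0.05. On this scale the changes of low genes come out too small. Days were compared by the interaction over 12 libraries. Voom used recovered reads with a mean of at least 10. The scripts were tested on simulated data. Tables and plots used pandas 2.3.3, NumPy 2.4.6 and matplotlib 3.10.9 under Python 3.11.15.

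Same-numbered lasered and control libraries deviated together on day 7 (correlations 0.485, 0.559 and 0.128, each over 0.1), so the numbers were taken to pair the eyes there, as read from the data. Laser replicate 3 correlated more with control replicate 1 (0.205) than with its own number, and laser replicate 1 with control replicate 3 was at 0.118. These mismatched pairs are also over 0.1, so the cutoff does not single out same-numbered eyes and the pairing of replicate 3 was assumed. The genes, lists and tests were chosen with earlier results of these data known. Named with values are genes past the threshold, the 6 highest and 6 lowest log2 differences of each day, the 8 highest means, and all tested chains of types I, III, IV, VI, XVIII and laminin. Of the partner lists, the 2 genes with the smallest p on each day are named. Genes outside this rule were chosen after their values were seen.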

Additional observations from a re-analysis of the deposited data

How the results depend on the processing

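No collagen or laminin gene was called under any alternative or with any 1 library left out, on either day. The counts over all genes moved. On day 3, against 25 genes, no filter gave 0, median-of-ratios rescaling 14, library weights 369, voom 13, removal of the GC trend 14, and that removal with a replicate block 0. Leaving out 1 library gave 0 to 294, the highest without laser replicate 1. On day 7, against 38 genes, no filter gave 13, median-of-ratios rescaling 24, library weights 114, voom 19, and removal of the GC trend with a replicate block 67. Leaving out 1 library gave 0 to 41. The causes were not tested. Voom and the GC settings were chosen after seeing the data. The replicate block alone gave 0 genes on day 3 and 53 on day 7, and changed no other call. On day 3 the libraries share only a number by this check (correlations 0.041, 0.016 and 0.077), although each lasered library correlated best with its own number. The sign of the log2 difference changed in 5 of 129 recomputed values on day 3, all in Col23a1, and in 51 of 420 on day 7, over 17 of 28 genes. On day 3, 46 of 55 genes had a mean signal under 1 and were not tested, and on day 7 it was 27. A library held 1308 to 1767 reads of all 55 genes on day 3, and 16064 to 26469 on day 7, and the part of depth was not tested.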
